A study of Rattus with 12 samples.

Results

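The direct signaling partners of opioid receptors were examined in rat neuron-glia co-cultures as 10 genes, chosen by name from the 17337 gene symbols in the count table. They were 5 α subunits of the Gi/o family of G-proteins (Gnai1, Gnai2, Gnai3, Gnao1 and Gnaz), 3 subunits of G-protein gated inwardly rectifying potassium (GIRK) channels (Kcnj3, Kcnj6 and Kcnj9) and both β-arrestins (Arrb1 and Arrb2). All 10 were in the table and passed the filter on low counts. RNA had been sequenced from 12 cultures, 4 of each condition, after 4 days with medium alone (untreated), 0.01 μM fentanyl (low dose) or 10 μM fentanyl (high dose). In every condition the cultures were seeded from purchased Sprague Dawley rat cells, mainly cortical neurons with fewer astrocytes and oligodendrocyte precursors, and dosing began at 24 to 26 days in vitro. Letters name the cultures, of which A, G, M and P were untreated, B, H, N and Q received the low dose, and the high dose went to C, I, O and R. The study speaks of biological replicates when it describes these cultures, but no source used here says whether they came from separate animals or cell lots. The p-values measure the spread between these cultures, which may in part be technical.

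Opioid receptors signal mainly through pertussis toxin sensitive G-proteins. When fentanyl, a μ-opioid agonist, activates the receptor, the Gi or Go α subunit exchanges GDP for GTP and separates from the βγ dimer. The α subunits of the Gi type inhibit adenylyl cyclase, and free βγ opens GIRK channels, which hyperpolarizes the neuron, and restrains presynaptic calcium channels. Phosphorylation of the receptor by G-protein coupled receptor kinases then recruits β-arrestins, which uncouple it from G-proteins and lead it into endocytosis.

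The total count ranged from 12059872 to 17023909 in the untreated, from 12907388 to 16512387 in the low dose and from 15102785 to 24813893 in the high dose cultures. Values are given as CPM, the count of a gene per 1000000 counts of its library, with library totals scaled by TMM in edgeR. Untreated culture G stood apart. It was the lowest of the 12 cultures for 8 of the 10 genes, where 28.4% of all genes were lowest in it, and the highest for Gnai2 and Gnai3, where 27.7% were. Its neuron marker score, the mean log2(CPM + 1) of 14 neuronal genes, was 3.91 against 7.25 to 7.80 in the other 11 cultures, its endothelial score (5 genes) of 2.69 was above theirs (1.20 to 2.14), and its fibroblast and mural score (8 genes) was 6.28 against 2.86 to 6.70. No neuronal marker was at 0 counts in G. Cultures whose letters follow each other are grouped below as sets ABC, GHI, MNO and PQR, and no source says what the letters stand for. Pairs of cultures were compared by the chi-square per degree of freedom between their counts. The cultures of ABC, and those of PQR, were closest to their own set across doses. GHI and MNO were not distinct in this way. M was closer to I (18.3) than to O (23.6) or N (44.1). G was closer to N (206) than to H (306) or I (309). These letter sets are used below to show the values side by side and as a block in alternative models, without a stated pairing. In such bulk samples, fewer cells of a type and less RNA per cell cannot be told apart.

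Go is the abundant G-protein of neurons, and its α subunit gene Gnao1 was at 289.9 CPM in A, 90.2 in G, 299 in M and 333 in P among the untreated cultures. The low dose cultures had 266 CPM in B, 280.0 in H, 248 in N and 309 in Q, and the high dose cultures had 272 in C, 288 in I, 262 in O and 324 in R. Apart from G, the 11 cultures lay within 248 to 333 CPM at every dose and the doses overlapped. The mean was 253 ± 110.0 CPM (SD, n = 4) without fentanyl, 276 ± 25.9 at the low dose and 287 ± 27.1 at the high dose. Without G the untreated mean was 307 ± 22.5 CPM (n = 3), so the order of the 3 conditions depended on this culture.

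Gnai1 and Gnaz were also lowest in G. Gnai1, a Gi α subunit prominent in brain, was at 190.4 CPM in A, 43.2 in G, 133 in M and 126 in P. At the low dose it was at 186 CPM in B, 136 in H, 131 in N and 118 in Q, and at the high dose at 173 in C, 145 in I, 122 in O and 121 in R. Gnaz, which encodes Gz, the member of the family that pertussis toxin does not modify, was at 41.3 CPM in A, 9.92 in G, 22.9 in M and 28.8 in P. Its low dose values were 34.8 CPM in B, 29.4 in H, 23.7 in N and 27.4 in Q, and its high dose values 36.1 in C, 25.4 in I, 25.2 in O and 32.7 in R. For both genes A, B and C were the highest culture of their dose, and the doses overlapped.

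Gnai2 and Gnai3, the widely expressed Gi α subunits, went the other way in G. Gnai2 was at 446 CPM in A, 808 in G, 487 in M and 487 in P, at 458 in B, 553 in H, 544 in N and 547 in Q, and at 485 in C, 559 in I, 547 in O and 631 in R. The value in G was 1.28-fold that of the next highest culture, and without G the untreated mean of 473 ± 23.4 CPM (n = 3) lay below the low dose mean of 525 ± 45.0 and the high dose mean of 555 ± 59.7 CPM (n = 4). Gnai3 was at 196 CPM in A, 205 in G, 146 in M and 141 in P, at 194, 126, 156 and 133 CPM in B, H, N and Q, and at 175, 145, 157 and 134 CPM in C, I, O and R. The 3 Gi α genes are close relatives, and how reads that match more than 1 of them were counted is not stated.

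**Figure D1:**
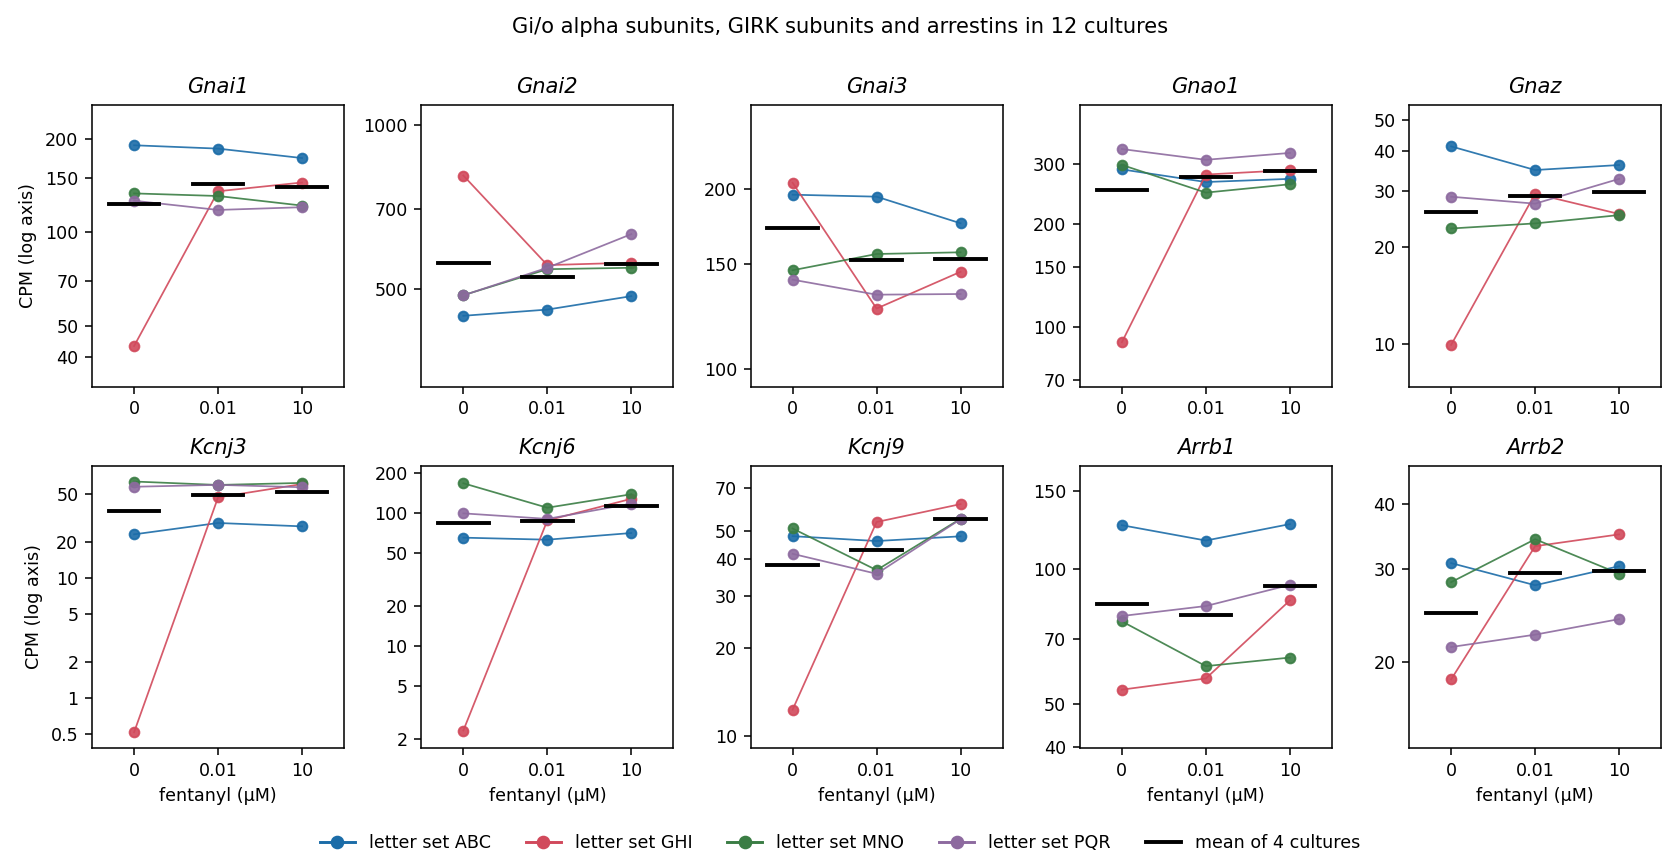
Each panel plots the CPM of 1 gene (log axis) against the fentanyl dose in μM. Points are the 12 cultures, thin lines join cultures with consecutive letters, and black bars are means of 4 cultures. In 8 of the 10 panels untreated culture G is the lowest point, most clearly for Kcnj3 (0.519 CPM) and Kcnj6 (2.33 CPM), while in the panels of Gnai2 and Gnai3 it is the highest.

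Kcnj3 and Kcnj6 varied most, with an SD of log2(CPM + 1) over the 12 cultures of 1.52 and 1.48. Neuronal GIRK channels are tetramers, in which Kcnj3 (GIRK1) needs a partner to reach the membrane, Kcnj6 (GIRK2) can form channels without it and Kcnj9 (GIRK3) joins mixed channels. Kcnj3 was at 23.0 CPM in A, 0.519 in G, 63.3 in M and 57.3 in P. It was at 28.6 CPM in B, 46.7 in H, 59.3 in N and 59.4 in Q, and at 26.8 in C, 60.3 in I, 61.7 in O and 56.7 in R. The 8 counts of Kcnj3 in G were the fewest of any of the 10 genes in a culture. A, B and C held 23.0 to 28.6 CPM whatever the dose, below the 46.7 to 63.3 CPM of the other cultures except G.

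Kcnj6 was at 65.0 CPM in A, 2.33 in G, 166 in M and 98.8 in P in the untreated condition. It was at 62.8 CPM in B, 87.5 in H, 109 in N and 89.9 in Q at the low dose, and at 70.4 in C, 127 in I, 137 in O and 117 in R at the high dose. Its means were 83.1 ± 68.3, 87.3 ± 18.9 and 113 ± 29.6 CPM (SD, n = 4) in order of dose, but the untreated mean without G was 110.0 ± 51.5 CPM (n = 3) and every pair of conditions overlapped.

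Kcnj9 was at 48.0 CPM in A, 12.3 in G, 51.0 in M and 41.8 in P. It was at 46.2 CPM in B, 53.7 in H, 36.8 in N and 35.7 in Q at the low dose, and at 48.0 in C, 61.7 in I, 55.0 in O and 54.8 in R at the high dose. The high dose mean of 54.9 ± 5.63 CPM stood above the low dose mean of 43.1 ± 8.47 and the untreated mean of 38.3 ± 17.7 CPM (46.9 ± 4.69 without G, n = 3). The low dose culture H, at 53.7 CPM, lay inside the high dose range, so the 2 doses overlapped. In the gene annotation used for names, Kcnj9 overlaps Igsf8 and the library kit does not mark strand, so reads of the 2 genes may not be fully separated.

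β-Arrestin 1 (Arrb1) was at 126 CPM in A, 53.8 in G, 76.5 in M and 78.6 in P. At the low dose it was at 116 CPM in B, 57.0 in H, 60.7 in N and 82.8 in Q, and at the high dose at 126 in C, 85.2 in I, 63.5 in O and 92.3 in R. Again A, B and C were the highest culture of each dose, and G was close to the low dose cultures H and N. β-Arrestin 2 (Arrb2), the form most studied in opioid receptor desensitization, was at 30.8 CPM in A, 18.5 in G, 28.4 in M and 21.4 in P, at 28.0 in B, 33.2 in H, 34.2 in N and 22.5 in Q, and at 30.4 in C, 35.0 in I, 29.4 in O and 24.1 in R. Outside G it lay between 21.4 and 35.0 CPM, and the doses overlapped.

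Whether the doses changed these genes was tested in 1 model of all 12 cultures and 12271 genes, with 1 factor of unwanted variation (RUVs) and the quasi-likelihood test of edgeR. A gene was called where the adjusted p was under 0.05 and the log2 fold change exceeded 0.5 up or down. Of the 10 genes, 0 were called at the low dose and 0 at the high dose against untreated cultures, and 0 between the doses. The background was 0% of all genes tested in each comparison, and leaving out culture G left 0 genes called in each. With no gene called at all, the calls do not set these genes apart from others. The study, which also used edgeR with unwanted variation removed, called genes in each comparison at these thresholds. The 0% thus belongs to the model fitted here. An unadjusted p under 0.05 was reached by 0 of the 10 genes in each comparison, against 0.742%, 1.19% and 1.17% of all genes. Groups did not overlap for 0 of the 10 genes, where for low dose vs. untreated 0.196% of all genes were wholly higher and 0.212% lower, for high dose vs. untreated 0.359% and 0.326%, and for the 2 doses 0.668% and 0.522%. DESeq2 with the same factor also called 0 of the 10. Log2 fold changes above 0 were found for 8 of the 10 genes at the low dose (53.4% of all genes) and for 9 at the high dose (50.8%). These counts depended on culture G, since without it they were 3 of the 10 at the low dose (54.8% of all genes) and 5 at the high dose (51.6%). The adjusted p of each gene was 1.0 (edgeR) in every comparison.

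The intervals show what sizes of change the data leave room for. Gnao1 had a log2 fold change of 0.01 (SE 0.12, 95% interval -0.25 to 0.26) in low dose vs. untreated and of 0.08 (SE 0.12, -0.18 to 0.33) in high dose vs. untreated, a range of 0.882- to 1.26-fold for the latter. For Gnai2 the log2 fold change was 0.08 (-0.19 to 0.34) at the low and 0.15 (-0.12 to 0.42) at the high dose. Gnai1, Gnai3 and Gnaz had values between -0.12 and 0.10 in both comparisons with untreated cultures, with intervals that stayed within -0.50 and 0.53. Changes of 1.5-fold in the α subunits were thus outside these intervals, which rest on the model with the factor. With the letter sets in its place and G included, this limit did not hold for 3 of the 5 α subunits. At the low dose the upper bound was then 1.01 for Gnai1, 0.93 for Gnao1 and 0.91 for Gnaz, and at the high dose 0.998, 0.99 and 0.94.

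For 2 GIRK subunits the intervals were wide. Kcnj3 had a log2 fold change of 0.65 (SE 0.67, -0.85 to 2.14) in low dose vs. untreated and of 0.70 (SE 0.67, -0.79 to 2.20) in high dose vs. untreated. Kcnj6 had 0.23 (SE 0.62, -1.14 to 1.60) and 0.57 (SE 0.62, -0.81 to 1.94). Single untreated cultures moved these values in both directions. Without culture G they were 0.12 and 0.23 for Kcnj3 and -0.30 and 0.08 for Kcnj6, and without culture M they were 1.43 and 1.498 for Kcnj3 and 1.12 and 1.47 for Kcnj6. Kcnj9, whose interval lay nearest to excluding 0 in high dose vs. untreated, had a log2 fold change of 0.43 (SE 0.20, -0.01 to 0.88, adjusted p = 1.0), which was 0.22 without G and 0.64 without M. The adjusted p stayed at 1.0 (edgeR) without M for these 3 genes. The arrestins had log2 fold changes of -0.22 (SE 0.25) and 0.00 (SE 0.25) for Arrb1 and 0.22 (SE 0.19) and 0.23 (SE 0.19) for Arrb2 at the low and the high dose.

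**Figure D2:**
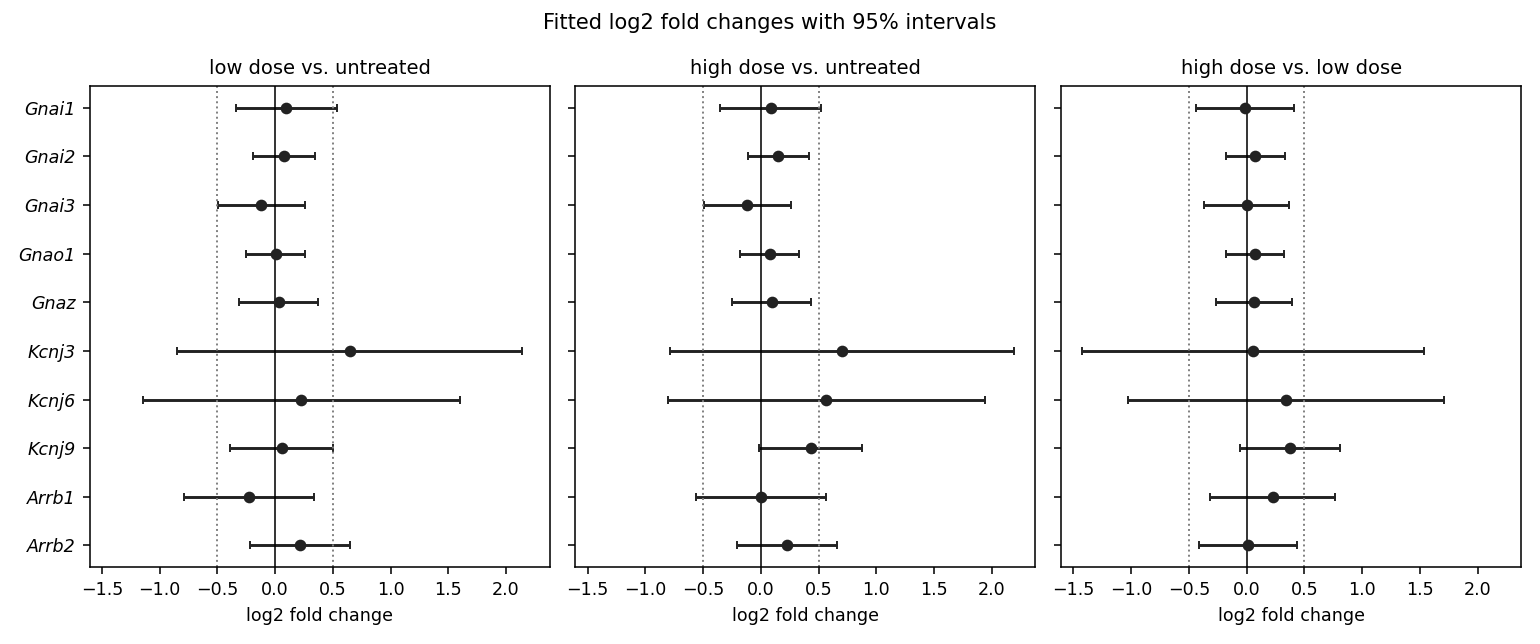
The panels give the log2 fold change (horizontal axis) of each gene in 3 comparisons, as points with 95% intervals from the model of 12 cultures. Dotted lines mark 0.5 in either direction. Every interval spans 0, those of Kcnj3 and Kcnj6 are the widest and that of Kcnj9 in high dose vs. untreated reaches down to -0.01.

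The comparison of the 2 doses sets cultures other than G against each other, although G enters the factor and the spread of the model. Between the doses, 9 of the 10 log2 fold changes were positive (high over low), where 47.6% of all genes were, with a median of 0.07 against -0.01 over all genes. Fitted without G, 7 of the 10 were positive (47.3% of all genes). Kcnj9 had 0.37 (SE 0.20, -0.06 to 0.81, adjusted p = 1.0), Kcnj6 0.34 (SE 0.62), Arrb1 0.23 (SE 0.24) and Kcnj3 0.06 (SE 0.67). Gnai2, Gnao1 and Gnaz had values of 0.07, 0.07 and 0.06, and Gnai1, Gnai3 and Arrb2 lay between -0.01 and 0.01. None of these passed the test. Without culture G the same model gave Kcnj9 0.35 (SE 0.14, 0.04 to 0.66, adjusted p = 1.0 from edgeR), and it was the 1 gene of the 10 with an unadjusted p under 0.05, against 4.24% of all genes. In high dose vs. untreated this was Gnai2 (0.25, SE 0.08), against 2.34%, and at the low dose it was 0 of the 10, against 1.99%.

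Within the letter sets, 5 of the 10 genes (Gnai2, Gnao1, Kcnj6, Kcnj9 and Arrb1) were higher at the high than at the low dose in each of the 4 sets, where 11.7% of all genes tested were, and 0 were lower in each set, against 11.1%. Without GHI, 6 were higher in the other 3 sets (16.5% of all genes) and 0 lower (15.6%). On the log2(CPM + 1) scale the differences of Kcnj6 were 0.16 (ABC), 0.53 (GHI), 0.33 (MNO) and 0.37 (PQR). For Kcnj9 they were 0.05, 0.20, 0.57 and 0.60 in the same order, and for Arrb1 0.12, 0.57, 0.06 and 0.16. Those of Gnao1 were small and close to each other, at 0.03, 0.04, 0.08 and 0.07, and those of Gnai2 ranged from 0.01 to 0.20. Kcnj3 was higher in 2 sets and lower in 2, with differences of -0.09, 0.36, 0.06 and -0.06.

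Cell type markers also differed between doses. Neuron scores at the high dose minus those at the low dose were -0.0007 in ABC, 0.09 in GHI, 0.25 in MNO and 0.15 in PQR, and the astrocyte score differed by 0.04, -0.27, -0.34 and -0.41. The oligodendrocyte precursor score was higher at the high dose in each set, by 0.12, 0.07, 0.24 and 0.03. The oligodendrocyte score differed by -0.23, -0.27, 0.79 and -0.23, the microglia score by 0.24, 0.44, -0.56 and -0.09, the fibroblast and mural score by 0.05, -0.42, -2.06 and -0.09 and the endothelial score by -0.32, 0.25, 0.19 and 0.18. Kcnj6 and Kcnj9 differed by more than the neuron score in 4 sets, Arrb1 in 3, and Gnai2 and Gnaz in 2. Gnao1, Gnai3, Kcnj3 and Arrb2 did so in 1 set and Gnai1 in 0. For the 5 genes that were higher in each set this was given in ABC, where the neuron score differed by -0.0007. The share of all genes above the neuron score was not computed. The part of cell composition in these differences was not tested.

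**Figure D3:**
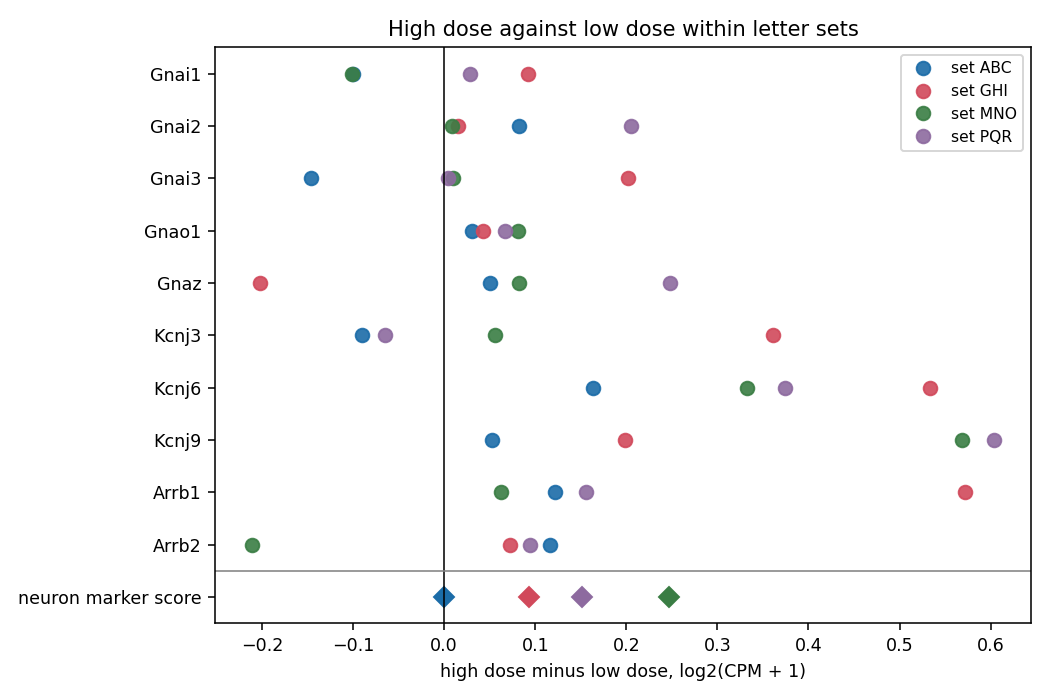
The horizontal axis is the difference in log2(CPM + 1) between the high dose and the low dose culture of a letter set, with 1 point per set for each gene and diamonds for the neuron marker score. For Gnai2, Gnao1, Kcnj6, Kcnj9 and Arrb1 the 4 points lie to the right of 0, with Kcnj6 between 0.16 and 0.53 and the neuron score between -0.0007 and 0.25.

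A model that took up the letter sets instead of the factor and left out culture G was also fitted. Between the doses it gave Kcnj6 a difference of 0.36 on the log2 scale (SE 0.10, adjusted p = 0.168 from edgeR) and Kcnj9 the same difference (SE 0.10, adjusted p = 0.174). Arrb1 had 0.23 (SE 0.10, adjusted p = 0.352 from edgeR). Thus 3 of the 10 genes had an unadjusted p under 0.05 in this model, against 13.6% of all genes, and 0 were called, against 0.113% (0.122% in high dose vs. untreated and 0% at the low dose). In low dose vs. untreated the same model gave Gnao1 -0.16 (adjusted p = 0.644) and Kcnj6 -0.31 (adjusted p = 0.644), so that 2 of the 10 had an unadjusted p under 0.05, against 7.54% of all genes. In high dose vs. untreated 1 did, against 9.43%, which was Gnai2 with 0.21 (adjusted p = 0.368).

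In the comparisons with untreated cultures, 0 of the 10 genes moved 1 way in all 4 sets. The background for higher and lower was 4.06% and 5.28% at the low dose and 5.22% and 5.22% at the high dose. Within GHI the values of G stood against those of the other sets. Kcnj3 was higher by 4.97 at the low dose and by 5.34 at the high dose than in G on the log2(CPM + 1) scale, and Kcnj6 by 4.73 and 5.26. In the other 3 sets, Gnai1, Gnao1, Kcnj6 and Kcnj9 (4 of the 10 genes) were each lower after the low dose than without fentanyl, where 13.7% of all genes were, and 1 (Gnai2) was higher, where 13.9% were. The differences of Gnao1 were -0.12, -0.27 and -0.10 in ABC, MNO and PQR, and those of Kcnj9 were -0.05, -0.46 and -0.22. At the high dose, Gnai2 was higher in these 3 sets, by 0.12, 0.17 and 0.37, and Gnai1 and Gnao1 were lower, where 15.1% of all genes were higher and 14.5% lower. The 2 comparisons share the untreated cultures.

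The make-up of each family was compared as a share of its counts within a culture, which does not depend on scaling. Shares are of counts and not per transcript length, so they do not rank the genes. Gnao1 made up 24.9% (A), 27.5% (M) and 29.8% (P) of the counts of the 5 α subunits in untreated cultures, and 7.80% in G. It made up 22.5% to 27.3% at the low dose and 23.6% to 26.1% at the high dose. Low dose minus untreated, the share differed by -1.55, -4.97 and -2.56 percentage points in ABC, MNO and PQR, and high dose minus untreated by -1.10, -3.90 and -3.72 points. With G included, the mean share was 22.5% ± 10.0 (SD, n = 4) without fentanyl, 24.5% ± 2.09 at the low dose and 24.6% ± 1.15 at the high dose, and the exact two-sided permutation p was 0.971 for each dose against untreated. That test pools the cultures and does not address the differences within sets. Without G the mean difference from untreated was -2.89 points at the low dose and -2.83 points at the high dose.

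Kcnj6 held 45.6% to 53.1% of the counts of the 3 GIRK subunits at the low dose and 48.5% to 54.1% at the high dose. Within the letter sets its share was higher at the high dose by 2.88, 4.43, 0.94 and 2.57 percentage points in ABC, GHI, MNO and PQR, and the difference of the means was 2.70 points (exact two-sided permutation p = 0.257). In culture G the share was 15.4% (36 of 234 counts, 95% Wilson interval 11.3% to 20.6%), and Kcnj9 held 81.2% (75.7% to 85.7%), so that Kcnj9 was the GIRK subunit with most counts there, while in the other 11 cultures Kcnj6 was. These intervals cover counting error only. The shares leave out Kcnj5, the remaining GIRK subunit gene. In G it was at 3.89 CPM, where Kcnj6 was at 2.33 and Kcnj3 at 0.519, all without scaling for transcript length. The share of Arrb1 in the arrestin counts was 76.6% ± 3.46 without fentanyl, 71.6% ± 9.29 at the low dose and 74.8% ± 6.08 at the high dose (SD, n = 4). It was 78.6% to 80.6% in the sets ABC and PQR at every dose, and 63.2% to 74.4% in GHI and MNO. Adjusted over the 9 tests of shares, the exact permutation p was 0.971 in each, where the smallest unadjusted p possible is 0.0286. A single share at that floor could not have reached an adjusted p under 0.05. These tests thus cannot show a change in 1 share alone.

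**Figure D4:**
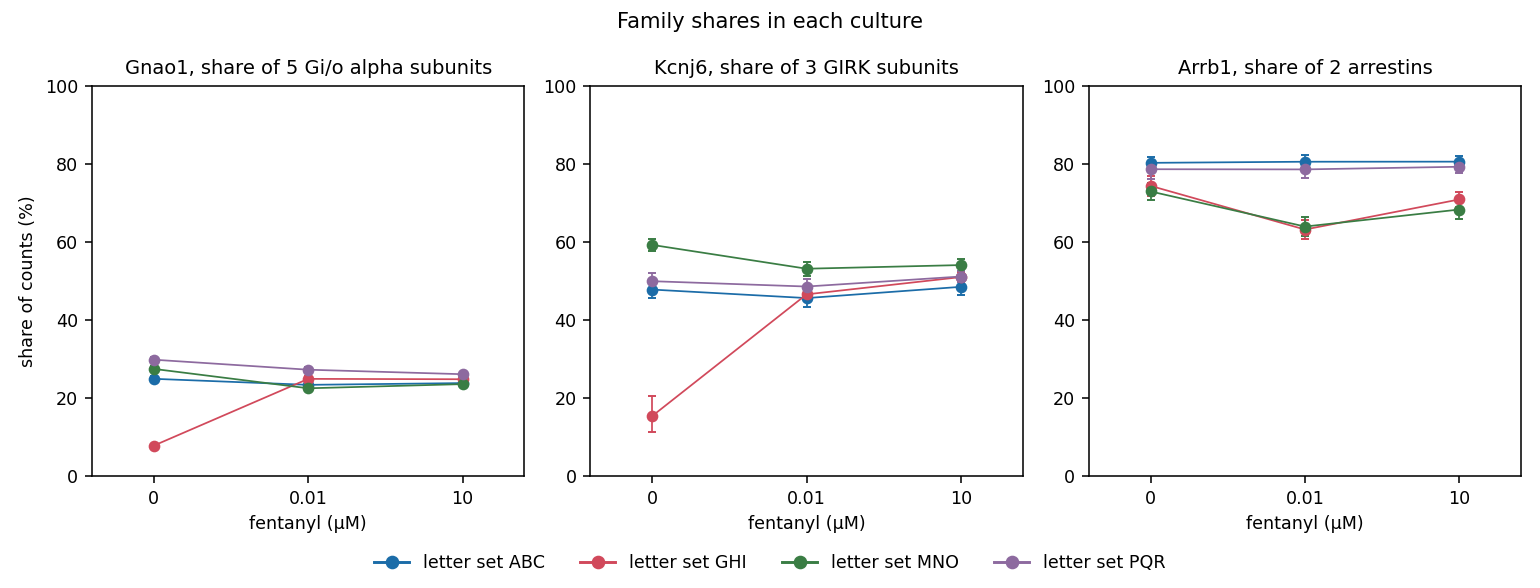
The vertical axis is the percentage of a family's counts that came from Gnao1 (left), Kcnj6 (middle) and Arrb1 (right), by fentanyl dose in μM. Points are cultures, with 95% Wilson intervals for counting error, and lines join letter sets. Untreated culture G lies at 7.80% and 15.4% in the first and second panel, and the Arrb1 shares of ABC and PQR stay between 78.6% and 80.6%.

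Outside culture G, the letter sets separated most of these genes more than the dose did. In the 11 cultures without G, the letter set held 95.9% of the variance of log2(CPM + 1) of Kcnj3 and the dose 1.39%, and the figures were 95.5% and 2.35% for Gnai1, 89.9% and 2.85% for Gnai3 and 87.6% and 7.83% for Arrb2. Kcnj9 was the one gene of the 10 with a larger part for the dose, with 43.9% against 33.3% for the letter set, and Gnai2 had 39.9% and 56.8%. The medians over all genes tested were 75.3% for the letter set and 7.96% for the dose. With G included the parts of letter set and dose were 30.2% and 18.8% for Kcnj3, 41.7% and 10.5% for Gnai1, 54.5% and 11.999% for Gnai3, 37.1% and 21.3% for Arrb2, 9.78% and 24.4% for Kcnj9 and 51.2% and 2.06% for Gnai2, with medians over all genes of 55.7% and 8.70%. These are descriptions, without a test. More letter sets than doses were compared, and without G the layout was unbalanced, so the parts are not additive.

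The set ABC did not overlap the other cultures, G aside, for 7 of the 10 genes. Gnai1, Gnai3, Gnaz and Arrb1 were higher in A, B and C than in any of the other cultures except G (16.7% of all genes were), and Gnai2, Kcnj3 and Kcnj6 were lower than in the other cultures (19.3% of all genes were, without G). For Gnai2 this was nearly a tie, with 485 CPM in C against 487 in M and 487 in P. The neuron score of ABC, 7.61 to 7.71, lay inside the range of 7.25 to 7.80 of the cultures H to R. In contrast, its oligodendrocyte precursor score was 5.69 to 6.16 against 6.90 to 7.76 and its oligodendrocyte score 6.06 to 6.73 against 7.51 to 9.11. The part of these glial populations in the values of ABC was not tested. In PQR, Gnao1 was above the other sets (12.4% of all genes, without G) and Arrb2 below them (11.8%). The microglia score of PQR was 1.78 to 2.002 against 4.02 to 5.996 in the other sets without G, its neuron score 7.25 to 7.40 against 7.45 to 7.80, its astrocyte score 8.36 to 8.77 against 7.21 to 8.07 and its oligodendrocyte precursor score 7.70 to 7.76 against 5.69 to 7.27. Their part in the values of Gnao1 and Arrb2 was not tested either.

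**Figure D5:**
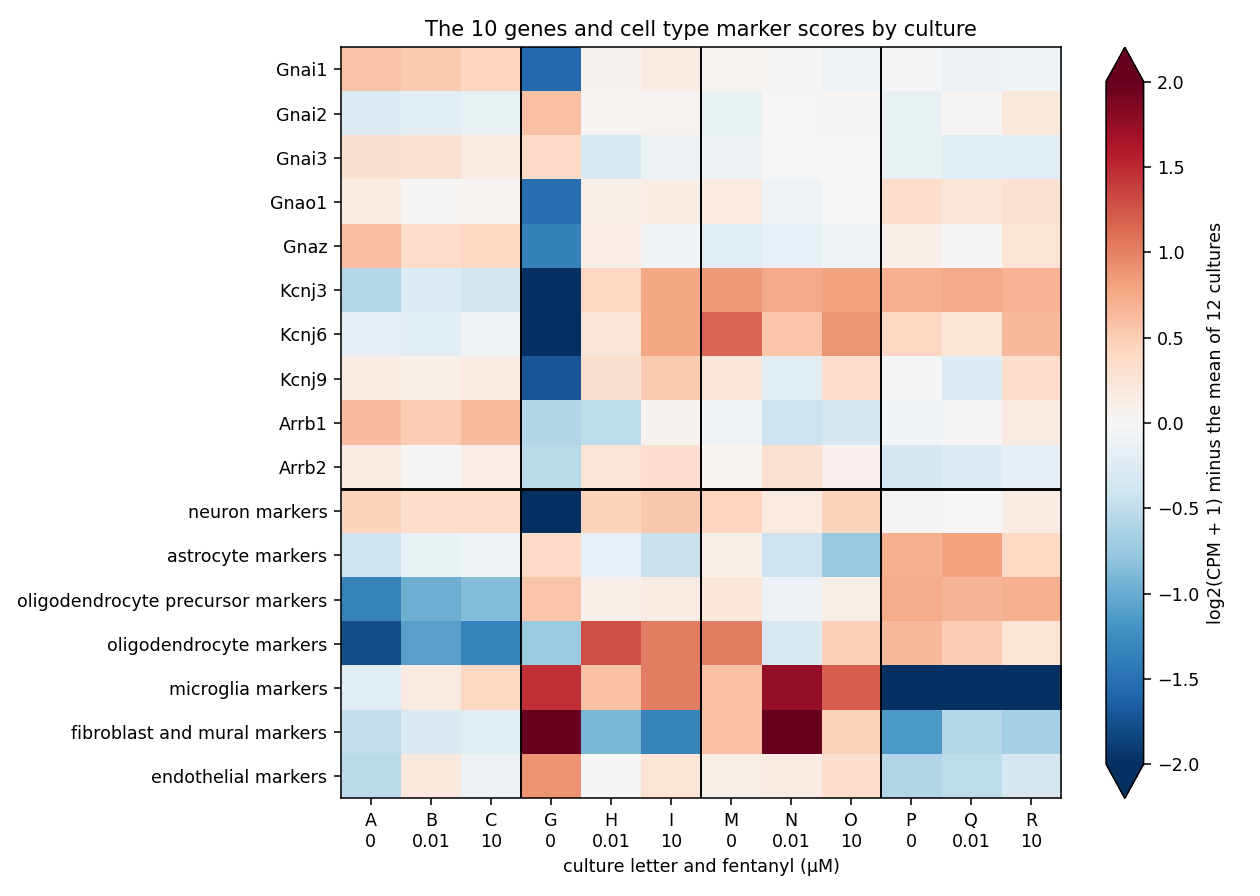
Rows are the 10 genes and 7 marker scores, columns the cultures with letter and fentanyl dose in μM, and color gives log2(CPM + 1) minus the mean of the 12 cultures of the row. Culture G is dark blue for Kcnj3, Kcnj6 and the neuron markers (score 3.91) and pale red for Gnai2 and Gnai3, and ABC is red for Gnai1 and Arrb1 and blue for Kcnj3 and for the oligodendrocyte markers (6.06 to 6.73).

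The genes most alike in profile were found by the root mean square difference of log2(CPM + 1) over the 12 cultures, after centering each gene on its mean. Among the 10 genes, Gnai1 and Gnaz were closest (0.19), followed by Kcnj3 and Kcnj6 (0.25) and Gnao1 and Kcnj9 (0.26), while Gnai3 and Kcnj3 were farthest apart (1.63). Over all genes tested, those nearest to Gnao1 were Dmtn (0.07), Pnma2 (0.08) and Dagla (0.08), the last a diacylglycerol lipase that makes the endocannabinoid 2-arachidonoylglycerol. Slc24a2, a sodium, calcium and potassium exchanger, was nearest to Kcnj6 (0.17), before Gabrb2 (0.18), a GABA-A receptor subunit, and Rasgrp1 (0.20). Rasgrp1 (0.19) and Slc24a2 (0.20) were also nearest to Kcnj3, followed by Kcnj6. Wasf1 (0.07), Ncdn (0.14) and Clstn1 (0.14) were nearest to Kcnj9, Ppfia4 (0.08), Cdk17 (0.09) and Kifap3 (0.09) to Gnai1, and Evl (0.08), Fbxl19 (0.08) and Atp6v0a1 (0.10) to Gnaz. The nearest genes were Trim8 (0.07), Slc25a39 (0.08) and Ybx1-ps3 (0.08) for Gnai2, Gmps (0.07), Spcs3 (0.08) and Ankrd42 (0.08) for Gnai3, and Ghdc (0.10), Rnf150 (0.10) and Pcdhga3 (0.11) for Arrb2. Zfp786 (0.11) and Epm2aip1 (0.13) were among the 3 nearest to Arrb1. All these profiles share the 12 libraries, culture G included.

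Other genes of the pathway were read from lists written by hand. The receptors themselves were scarce. The μ-opioid receptor gene Oprm1, the main target of fentanyl, had 0 to 7 counts per culture and the κ receptor gene Oprk1 0 to 4, and neither passed the filter, while Oprd1 (δ) had at most 26 counts. Oprl1, the nociceptin receptor gene, was at 16.3 ± 8.61 CPM (SD, n = 4) without fentanyl, 20.5 ± 3.60 at the low dose and 24.2 ± 4.31 at the high dose, with 3.69 CPM in G. Without G the untreated mean was 20.4 ± 2.44 CPM (n = 3), close to the low dose mean. For the high dose over untreated, the fitted log2 difference was 0.50 (SE 0.21, adjusted p = 1.0 from edgeR), and 0.22 without G.

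Of the 8 tested α subunits outside the Gi/o family, 15 β and γ subunits, 5 receptor kinases, 10 Gi/o or GIRK regulators and 8 other inward rectifiers, 0 passed the test in either direction in any of the 3 comparisons, where the background was 0%. Of the 15 β and γ subunits, 10 had a fitted level above that of untreated cultures at the low dose (median log2 fold change 0.13, against 0.01 and 53.4% of all genes) and 12 at the high dose (median 0.09, against 0.00 and 50.8%). Between the doses 8 were higher at the high dose (median 0.004, against -0.01 and 47.6%). At the low and the high dose, 4 and 5 of the 8 other α subunits were above untreated cultures. So were 2 and 2 of the 5 kinases, 6 and 7 of the 10 regulators and 4 and 5 of the 8 other rectifiers. Between the doses 5, 3, 7 and 4 genes of these lists were higher. Of the β and γ subunits, Gng3 had the smallest unadjusted p at the low dose (0.46, SE 0.23). Gng5 had it at the high dose (-0.18, SE 0.10) and Gng8 in high dose vs. low dose (-0.45, SE 0.37). For the other α subunits these were Gnaq, a Gq subunit, at the low dose (-0.29, SE 0.16) and Gna14 at the high dose (-0.30, SE 0.27) and between the doses (-0.56, SE 0.26). Adrbk1, which encodes the receptor kinase GRK2, was at 142 to 164 CPM in 11 cultures and at 86.3 CPM in G, with log2 fold changes of 0.10 (SE 0.09) and 0.11 (SE 0.09) at the low and the high dose, the smallest p of the kinases. Between the doses this was Grk6 (-0.15, SE 0.10).

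Among the regulators, Rgs7bp, the membrane anchor of the R7 RGS complexes that speed the closing of GIRK channels, led by p at the high dose (0.54, SE 0.30) and between the doses (0.50, SE 0.29), with 4.86 CPM in G and 31.8 to 57.6 CPM elsewhere. Snx27, a sorting nexin that binds GIRK subunits, had the smallest at the low dose (-0.22, SE 0.19). Of the other inward rectifiers, Kcnj4 led at the low dose (0.68, SE 0.53), Kcnj5, the remaining GIRK subunit gene (GIRK4), at the high dose (0.45, SE 0.38) and Kcnj2 between the doses (0.66, SE 0.63). Kcnj5 was at 0.412 to 1.45 CPM in 11 cultures and at 3.89 CPM in G, the reverse of the order seen for Kcnj3 and Kcnj6. Without G, the log2 fold changes against untreated cultures were 0.18 for Gng3 and 0.15 for Kcnj4 at the low dose and 0.16 for Rgs7bp and 0.69 for Kcnj5 at the high dose.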

How the data were processed

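The authors sequenced poly(A) RNA of 12 cultures from unstranded libraries (TruSeq v2), aligned the reads with STAR to rn6 and ran featureCounts. The deposited values are whole-number counts for each gene, taken ahead of any normalization. Of 17337 symbols, 2226 had no count and 12271 were kept by filterByExpr.

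R 4.3.3, edgeR 4.0.16 and DESeq2 1.42.0 were used, with TMM scaling. The study names RUVseq without its procedure or number of factors. Here 1 RUVs factor came from the replicates of each condition, with the formula written anew. Dose effects were tested by quasi-likelihood in edgeR, p-values were adjusted by Benjamini-Hochberg over the whole table, and calls needed an adjusted p below 0.05 together with an absolute log2 fold change larger than 0.5. Intervals (95%) were derived from the quasi-likelihood statistics. The procedure was tested on simulated counts, whose spread was estimated without culture G and with the letter sets removed. That test cannot show what the model detects in the real cultures. Lacking transcript lengths, values were not scaled by length. Counts or CPM of different genes set side by side thus do not rank their transcript numbers. No sequences are shown. GRK2 and GRK3 were found under Adrbk1 and Adrbk2, and Gng4, Gprin1 and Kctd12 were not analysed here.

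Text names the 10 genes, the 3 nearest in profile to each (1 for Arrb1 is not reported here) and, per pathway list and comparison, called genes or otherwise the gene with the smallest p. The genes, lists and tests were chosen with earlier results of these data known. Overlapping genes (Gnat2 with Gnai3, Igsf8 with Kcnj9, Rsph14 with Gnaz, Mir326 with Arrb1) cannot be told apart by strand.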

Additional observations from a re-analysis of the deposited data

Results flagged for a closer look

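In 3 of 39 groups of 4 cultures (10 genes and 3 family shares at 3 doses) 1 culture lay far from the other cultures of its dose by Dixon's ratio, above the 95% critical value, where chance flags about 1 group in 20. Gnai2 was at 808 CPM in untreated culture G (ratio 0.888), the culture with few neuron transcripts. Gnai2 was also low at 458 CPM in low dose culture B (ratio 0.900), and Kcnj3 was at 26.8 CPM in high dose culture C (ratio 0.859). Cultures B and C belong to the letter set A-B-C, whose untreated culture A had 446 CPM of Gnai2 and 23.0 CPM of Kcnj3.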

How the results depend on the processing

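None of the 10 genes was called under any of the alternatives run, and leaving out each culture in turn left 0 genes called of all genes tested in each comparison. Outside those, counts of all genes called were 1 and 1 (high dose vs. untreated, high vs. low dose) with 2 RUVs factors, 39 and 113 with 4 factors, 2 and 0 with the likelihood ratio test, 3 and 1 with DESeq2, and 0 and 0 with a replicate block by letter sets, which became 15 and 14 without untreated culture G. With 4 factors Kcnj9 between the doses (0.35) had an adjusted p of 0.0472 in edgeR, below the fold threshold. Of 270 log2 fold changes, 23 changed sign outside the leave-one-out fits. For low dose vs. untreated these were Gnai2 (-0.0841 without a factor, -0.0573 with the block), Gnao1 (-0.0561), Kcnj6 (-0.17) and Kcnj9 (-0.10) with 4 factors, Gnao1 with DESeq2 (-0.000900), its size factors (-0.00108) or no filter (-6.52e-05), and, with the block and without G, Gnai1 (-0.0718), Gnao1 (-0.16), Gnaz (-0.0500), Kcnj6 (-0.31) and Kcnj9 (-0.22). For high dose vs. untreated they were Gnai2 without a factor (-0.00435), Arrb1 with 2 factors (-0.0291), DESeq2 (-0.00213) or its size factors (-0.00229), and, with the block and without G, Gnai1 (-0.0916), Gnao1 (-0.11) and Gnaz (-0.00256). Between the doses they were Gnai3 (-0.00767) and Arrb2 (-0.00103) with 2 factors and Arrb2 with 4 (-0.00468). Leaving out 1 culture at a time, the log2 fold changes that changed sign ranged as follows. For low dose vs. untreated they were Arrb1 -0.43 to 0.11, Gnai1 -0.10 to 0.44, Gnai2 -0.047 to 0.16, Gnai3 -0.26 to 0.0146, Gnao1 -0.14 to 0.15, Gnaz -0.11 to 0.40, Kcnj3 -0.0146 to 1.43, Kcnj6 -0.41 to 1.12 and Kcnj9 -0.13 to 0.27. For high dose vs. untreated they were Arrb1 -0.16 to 0.33, Gnai1 -0.14 to 0.43, Gnai3 -0.25 to 0.00949, Gnao1 -0.0779 to 0.21 and Gnaz -0.0626 to 0.46. For high dose vs. low dose they were Arrb2 -0.10 to 0.12, Gnai1 -0.12 to 0.10, Gnai2 -0.00989 to 0.13, Gnai3 -0.078 to 0.15, Gnaz -0.0227 to 0.14, Kcnj3 -0.31 to 0.62 and Kcnj6 -0.00487 to 0.88. Share differences, in percentage points, were Arrb1 -3.73 to 0.356 (high dose vs. untreated), Gnao1 -0.603 to 0.984 (high dose vs. low dose), Gnao1 -2.83 to 4.51 (high dose vs. untreated), Gnao1 -2.89 to 4.45 (low dose vs. untreated), Kcnj6 -1.15 to 13.5 (high dose vs. untreated) and Kcnj6 -3.85 to 10.8 (low dose vs. untreated). The causes were not tested. No source states a pairing by letters. Deviations from the dose means correlated at -0.19 to 0.89 over 12 pairs of cultures within sets. The lowest were those of G with H (-0.19) and I (-0.05), and without G the range was 0.53 to 0.91 over 10 pairs. Pairs between sets are not given, so these values do not decide whether the cultures were paired. Shares per kilobase of transcript were not run, for lack of lengths. The 8 counts of Kcnj3 in G limit its folds there.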
